A study of Homo sapiens with 27 samples.

Results

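Epithelial junction and keratin genes were followed through knockdown of the circular RNA circRMST and of the transcription factors SOX2 and NKX2-1 in SHP77 cells, an established human line of small cell lung cancer. The set was named by symbol and held 10 genes: EPCAM, CDH1, KRT8, KRT18, KRT19, ESRP1, ESRP2, CLDN1, ST14 and GRHL2. All 10 were listed in both deposited count tables, among 44661 human genes listed in at least 1 of them. In one table, cells were infected with lentivirus carrying an shRNA and selected with 3 µg/ml puromycin, and total RNA was sequenced from the control shGFP, circRMST shRNA 1 and circRMST shRNA 2, each with 2 libraries. In the other, cells were transfected with siRNA and collected after 72 hours, and poly(A) RNA was sequenced from si-control (3 libraries) and from SOX2 siRNA 1, SOX2 siRNA 2, NKX2-1 siRNA 1 and NKX2-1 siRNA 2 (2 libraries each). All groups were 1 cell line, and the shRNA groups differed from the siRNA groups in reagent, selection and library kit at once. The series' design calls its replicates biological, without saying what separated them, so p-values here measure the spread between these libraries.

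Epithelial cells are held side by side by adherens junctions, which are built on the cadherin CDH1, and the space between them is sealed by tight junctions, whose strands are made of claudins such as CLDN1. Inside the cell, keratin filaments form from pairs of a type II and a type I keratin, and KRT8 with KRT18 is the pair of simple epithelia. EPCAM is an adhesion protein of the epithelial surface, ESRP1 and ESRP2 direct epithelial splicing, GRHL2 is a transcription factor that supports epithelial genes, and ST14 (matriptase) is a membrane-bound serine protease. Small cell lung cancer is a neuroendocrine carcinoma, and its cells commonly carry EPCAM and simple keratins.

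The label was met by part of the set only. EPCAM, KRT8 and KRT18 had between 1662 and 19706 reads in every library. ST14 had 37 to 238 reads and CLDN1 had 6 to 160. CDH1, KRT19, ESRP1, ESRP2 and GRHL2 never had more than 45 reads, and CDH1 had 5 reads in all over the 11 siRNA libraries. Levels are normalized counts, not corrected for gene length, so they are compared between libraries and not between genes.

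Library totals ran from 46850300 to 57352556 reads in the shRNA table, of which 40.5% to 45.4% fell on the mitochondrial ribosomal gene MT-RNR2, and from 15486858 to 50098747 in the siRNA table. SOX2 fell from a mean of 1142 ± 54.0 (SD, n = 3) in si-control to 393 ± 5.10 (SD, n = 2) with SOX2 siRNA 1 and 452 ± 19.1 (SD, n = 2) with SOX2 siRNA 2. NKX2-1 fell from 2234 ± 110 (SD, n = 3) to 1014 ± 78.6 and 816 ± 28.5 (SD, n = 2 each) with its siRNAs, while SOX2 rose to 2263 and 2175 in the same libraries. The gene row RMST does not measure the circle, so knockdown of circRMST could not be checked. The shGFP libraries carried scattered low reads: 1548 protein-coding genes were at 0 throughout the siRNA table, and shGFP detected 82.4% and 85.6% of these against 14.7% to 20.5% in the circRMST shRNA libraries. Over these genes the excess of shGFP over the knockdown mean had a median of 4.03 normalized counts and a 99th percentile of 38.7, and this value is set beside each low gene. It is no bound for genes that had siRNA reads, and the part of the scattered reads in any result was not tested. The neuroendocrine markers INSM1, SYP, CHGA, NCAM1, DLL3 and NKX2-1 had reads in all 17 libraries. In bulk RNA, fewer cells of a type and less RNA per cell cannot be told apart.

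Promoter sequences are shown for KRT8 and CLDN1, the only members with a promoter entry. KRT8 was lower in the mean of the reagents in each knockdown, and CLDN1 rose with circRMST shRNAs and with SOX2 siRNAs. They are the 250 bases before a transcript start in RefSeq (GRCh38.p14, both on the minus strand, 5′ to 3′ along the gene), and 2 of the 10 genes matched that table. Capitals mark a match to a searched motif.
KRT8, chr12:52926470-52926719: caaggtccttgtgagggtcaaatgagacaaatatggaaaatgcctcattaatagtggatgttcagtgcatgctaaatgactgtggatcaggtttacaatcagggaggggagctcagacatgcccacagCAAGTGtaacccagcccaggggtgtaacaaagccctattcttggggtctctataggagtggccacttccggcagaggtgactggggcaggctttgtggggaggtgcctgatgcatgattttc
CLDN1, chr3:190322447-190322696: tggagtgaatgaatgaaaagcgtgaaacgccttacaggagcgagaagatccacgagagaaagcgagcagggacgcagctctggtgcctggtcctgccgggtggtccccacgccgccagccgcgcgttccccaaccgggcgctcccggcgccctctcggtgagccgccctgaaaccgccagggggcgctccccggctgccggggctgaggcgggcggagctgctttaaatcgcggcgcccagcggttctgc

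The letters searched, on both strands, were an NKX2-type site CACTTG, a SOX-type site ACAATG, an E-box CAGGTG and a grainyhead-type site AACNGGTT. The KRT8 window held 1 match, CAAGTG at position -122, the reverse complement of the NKX2-type letters, which 9.5% of 35116 promoters of this length held. The CLDN1 window held no match to any of the 4, and the other letters were present in 9.29% (SOX type), 17.5% (E-box) and 1.49% (grainyhead type) of promoters. The CLDN1 window was 68.8% G or C with 28 CpG dinucleotides, and the KRT8 window was 50.4% G or C with 1, against a median of 58.0% G or C over all promoters. The start used for KRT8 lies inside the gene's annotated span (chromosome 12, 52897191 to 52949860), and which start SHP77 cells use was not tested. A letter match is a description of the sequence and not a binding site.

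Among the 6 genes with enough reads to test in the shRNA table, CLDN1 rose with both circRMST shRNAs, and EPCAM, KRT8, KRT18, ST14 and ESRP2 were lower in the mean of the shRNAs. The question was what loss of circRMST changes in these cells. Genes were tested with limma on log2(normalized count + 1) at an adjusted p of 0.05, with p-values adjusted over the 19068 genes whose mean was at least 10, and 53.7% of those were called in this comparison, 27.8% higher and 25.9% lower. With each shRNA alone, CLDN1 was higher, and KRT18 and ST14 were lower, where 19.6% and 17.4% of all genes tested were called higher and lower by both. With equal library totals in place of the authors' scaling, the median of all genes tested moved by -0.14 on the log2 scale and the calls from 5294 higher and 4936 lower to 3636 and 6513, so small falls depend on the scaling.

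CLDN1, the tight junction claudin (ENSG00000163347.5, chromosome 3, 190305707 to 190322446), was at 27.7 and 14.2 normalized counts in shGFP, 160 and 156 with circRMST shRNA 1, and 111 and 129 with circRMST shRNA 2. All 4 knockdown libraries lay above both shGFP libraries, as they did for 28.6% of all genes tested. The mean log2 difference was 2.73 ± 0.26 (SE; adjusted p = 6.12e-09, limma), a 6.63-fold rise. The shRNAs gave 2.93 ± 0.30 and 2.53 ± 0.30 and did not differ by the test, with a difference of 0.40 (95% interval -0.23 to 1.02). CLDN1 lies within the annotated span of CLDN16, and whether the counting used strand is not given in the sources used here.

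ST14, the matriptase gene (ENSG00000149418.10, chromosome 11, 130159782 to 130210362), was at 143 and 142 in shGFP, 44.0 and 38.1 with shRNA 1, and 40.4 and 38.2 with shRNA 2. The 4 knockdown libraries lay close together and below both controls, a pattern that 28.2% of all genes tested showed. ST14 fell by 1.80 ± 0.25 on the log2 scale (adjusted p = 2.16e-06, limma), 3.49-fold, and the shRNAs differed by 0.06 (95% interval -0.55 to 0.66). Its shGFP excess of 102 normalized counts is beyond the 99th percentile of 38.7 among genes without siRNA reads. ST14 had reads in every siRNA library and is not one of those genes, and the part of such scattered reads in its fall was not tested.

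The keratin pair and EPCAM moved by far less. KRT18, the type I partner (ENSG00000111057.10, chromosome 12, 52948855 to 52952906), was at 7129 and 6780 in shGFP, 6250 and 5451 with shRNA 1, and 5287 and 5043 with shRNA 2. Every knockdown library lay below both controls, and KRT18 fell by 0.34 ± 0.06 (adjusted p = 1.84e-05, limma), with 0.25 for shRNA 1 and 0.43 for shRNA 2 and both called. KRT8, the type II partner (ENSG00000170421.12), was at 2758 and 2980 in shGFP, 2786 and 2687 with shRNA 1, and 2329 and 2256 with shRNA 2. The shRNA 1 libraries overlapped the controls and the shRNA 2 libraries did not. KRT8 fell by 0.19 ± 0.06 in the mean (adjusted p = 0.00723, limma), a call that was lost without shGFP replicate 2 (-0.14, adjusted p = 0.121). The difference was -0.07 with shRNA 1 (adjusted p = 0.432) and -0.32 with shRNA 2 (adjusted p = 0.000405).

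EPCAM (ENSG00000119888.10, chromosome 2, 47369311 to 47387020) was at 3860 and 3856 in shGFP, 3552 and 3732 with shRNA 1, and 2788 and 2961 with shRNA 2. All 4 knockdown libraries were below both controls, and the shRNA 2 libraries were the lowest. EPCAM fell by 0.25 ± 0.05 in the mean (adjusted p = 0.000414, limma), through -0.08 with shRNA 1 (adjusted p = 0.286) and -0.43 with shRNA 2 (adjusted p = 7.00e-06). The shRNAs differed for EPCAM by 0.34 ± 0.06 (adjusted p = 0.000391) and for KRT8 by 0.26 ± 0.07 (adjusted p = 0.0094), while 19.1% of all genes tested differed between them. The KRT8 difference lost its call without circRMST shRNA 1 replicate 1 or circRMST shRNA 2 replicate 2 (adjusted p = 0.0864 and 0.0813).

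ESRP2, a regulator of epithelial splicing (ENSG00000103067.12), was at 30.8 and 25.6 in shGFP, 9.43 and 12.7 with shRNA 1, and 7.35 and 3.10 with shRNA 2, from 3 to 30 reads a library. It passed the minimum mean of 10 mainly through shGFP, where it was high, so its call supports nothing by itself. The fitted difference was -1.80 ± 0.56 (adjusted p = 0.00874, limma), and the call was lost without shGFP replicate 1 (adjusted p = 0.0947) or replicate 2 (adjusted p = 0.0536) and with quantile normalization (adjusted p = 0.0878). ESRP2 shares 227 annotated bases with NFATC3, so some reads there may belong to either gene. Its shGFP excess of 20.1 normalized counts lies within the 38.7 of genes without siRNA reads, and the part of these reads in the result was not tested.

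CDH1, KRT19, ESRP1 and GRHL2 fell below the minimum mean in total RNA and were left out of the test. CDH1 had 23 and 10 reads in shGFP, none with shRNA 1, and 1 and 3 with shRNA 2. KRT19, a type I keratin of ducts and glands, had 17 and 26 reads in shGFP and 1 read in the 4 knockdown libraries together. Both were highest in shGFP, and a count of 0 allows up to 3 reads, so no fold is given. Without the filter on the mean, KRT19 (-4.21, adjusted p = 0.0028) and CDH1 (-3.26, adjusted p = 0.0107, limma) passed as lower in the mean of the shRNAs, which makes 7 members lower instead of 5; fitted values against libraries at 0 depend on the pseudocount and are no bound. ESRP1 had 2 and 14 reads in shGFP and 1 to 5 with the shRNAs, which overlap. GRHL2 had 23 and 11 reads in shGFP and 4 to 10 with the shRNAs, all below the controls, and neither passed without the filter (adjusted p = 0.504 and 0.0901). The shGFP excess was 15.6 normalized counts for CDH1, 20.8 for KRT19, 4.19 for ESRP1 and 11.7 for GRHL2, each within the 38.7 of genes without siRNA reads. Whether these reads come from SHP77 transcripts was not tested.

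**Figure D1:**
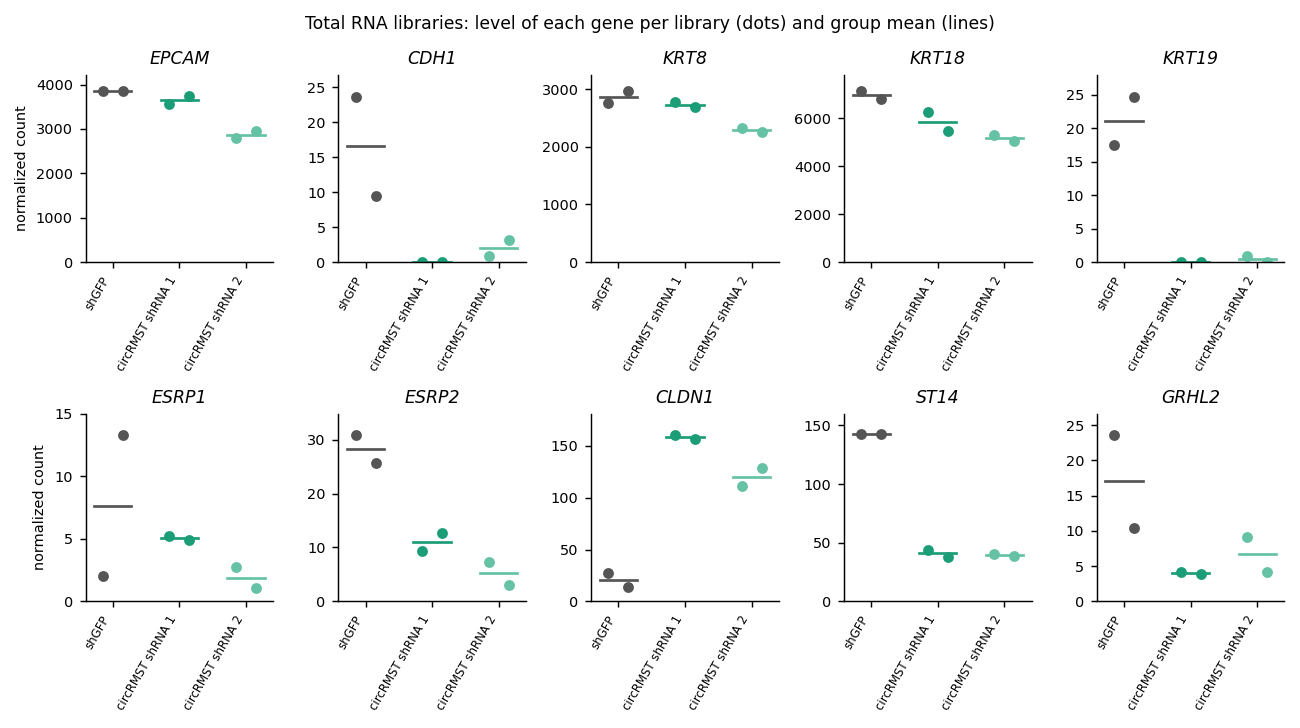
Normalized count of each of the 10 genes in the 6 total RNA libraries (dots) with the mean of each group (lines); each panel has its own axis from 0. CLDN1 is higher with both circRMST shRNAs (111 to 160 against 14.2 and 27.7), ST14 is lower (38.1 to 44.0 against 142 and 143), and EPCAM, KRT8 and KRT18 are lowest with shRNA 2.

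With SOX2 siRNAs, CLDN1 rose again and KRT8, KRT18 and EPCAM were lower in the mean. Among 16750 genes tested with poly(A) RNA, 56.3% were called in this comparison, 27.6% higher and 28.7% lower, against 1 higher and 4 lower of 6 members tested. The fourth was GRHL2, which passed the minimum mean only through the control and NKX2-1 siRNA groups, so its call supports nothing by itself. Without it, 3 of 5 were lower. The SOX2 and NKX2-1 comparisons share the si-control libraries. With each siRNA alone, 18.6% and 19.3% of all genes tested were called higher and lower by both; of the members, CLDN1 was higher and KRT8 and KRT18 were lower in this way, and GRHL2 as well on few reads. ESRP2 was below the minimum mean here and GRHL2 was above it, so the 6 genes tested differ by 1 from those in total RNA.

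CLDN1 was at 13.7, 24.4 and 8.46 in si-control, 40.6 and 51.7 with SOX2 siRNA 1, and 80.6 and 67.1 with SOX2 siRNA 2, from 6 to 69 reads a library. Each SOX2 siRNA library lay above all controls, as for 24.5% of all genes tested. The log2 difference was 1.96 ± 0.30 (adjusted p = 2.53e-06, limma), 3.88-fold, with 1.62 for siRNA 1 and 2.29 for siRNA 2, both called. With NKX2-1 siRNAs it stayed among the controls, at 10.4 and 8.59 with siRNA 1 and 16.9 and 14.8 with siRNA 2. The NKX2-1 difference was -0.20 ± 0.30 (adjusted p = 0.628; 95% interval -0.81 to 0.41). Set directly against each other, SOX2 siRNAs were higher than NKX2-1 siRNAs by 2.16 ± 0.27 (adjusted p = 1.52e-07, limma), where 55.8% of all genes tested differed (4668 higher and 4686 lower, against 3716 and 5469 with equal library totals).

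GRHL2 showed the opposite order at low counts. It was at 22.5, 9.75 and 16.9 in si-control, 8.54 and 4.93 with SOX2 siRNA 1, and 3.50 and 5.37 with SOX2 siRNA 2. With NKX2-1 siRNAs it was at 19.8, 18.4, 12.4 and 24.7. The SOX2 siRNA libraries, with 3 to 12 reads each, lay below all others, while those of NKX2-1 overlapped the controls. GRHL2 fell by 1.38 ± 0.38 with SOX2 siRNAs (adjusted p = 0.00321, limma) and differed by 0.22 ± 0.38 with NKX2-1 siRNAs (adjusted p = 0.681). The direct difference was -1.60 ± 0.36 (adjusted p = 0.000375). The call for SOX2 siRNA 1 alone (adjusted p = 0.0391) was lost without si-control replicate 1 (0.154), si-control replicate 3 (0.0853) or SOX2 siRNA 1 replicate 2 (0.27). The call for SOX2 siRNA 2 alone (adjusted p = 0.00447) was lost without its replicate 1 (0.0527). GRHL2 also shares 267 annotated bases with GRHL2-DT.

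KRT8 was lower with all 4 siRNAs. It was at 11930, 11867 and 11765 in si-control, 7707 and 7239 with SOX2 siRNA 1, 8929 and 9188 with SOX2 siRNA 2, 7683 and 8057 with NKX2-1 siRNA 1, and 9198 and 9383 with NKX2-1 siRNA 2. Every knockdown library was below every control, a pattern shown by 25.0% of all genes tested for SOX2 and 18.0% for NKX2-1. KRT8 fell by 0.53 ± 0.03 with SOX2 siRNAs (adjusted p = 4.01e-14) and by 0.47 ± 0.03 with NKX2-1 siRNAs (adjusted p = 1.29e-12, limma). The knockdowns were not told apart by the test, with a difference of -0.06 (95% interval -0.11 to 0.00265; adjusted p = 0.0986), which passed with other scalings of the libraries (adjusted p = 0.00195 with equal totals).

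Of all 16750 genes tested, 39.9% were called with NKX2-1 siRNAs, 18.5% higher and 21.4% lower (3092 and 3592 genes, against 4224 and 2643 with equal library totals). KRT8 and KRT18 were the 2 of 6 members called, both lower, and both passed with each siRNA alone, as 10.2% of all genes tested did in that direction. No member was higher by both siRNAs or lay above the controls in every library, against 8.88% and 15.9% of all genes tested.

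KRT18 responded unequally to the reagents. It was at 5899, 5943 and 5892 in si-control, 2790 and 3113 with NKX2-1 siRNA 1, 4760 and 4734 with NKX2-1 siRNA 2, 4890 and 4416 with SOX2 siRNA 1, and 4791 and 4875 with SOX2 siRNA 2. All knockdown libraries lay below the controls, and the NKX2-1 siRNA 1 libraries lay far below the rest. KRT18 fell by 1.00 ± 0.05 with NKX2-1 siRNA 1 and by 0.32 ± 0.05 with NKX2-1 siRNA 2 (adjusted p = 8.50e-16 and 4.34e-06, limma). The gap between these siRNAs was 0.69 ± 0.05 (adjusted p = 5.19e-11), and 26.5% of all genes tested differed between them. With SOX2 siRNAs it fell by 0.32 ± 0.04 in the mean (adjusted p = 6.79e-08), and the SOX2 siRNAs differed by -0.06 (95% interval -0.16 to 0.05).

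EPCAM went opposite ways with the siRNAs to 1 target. It was at 2797, 2782 and 2761 in si-control, 2444 and 2232 with NKX2-1 siRNA 1, and 3016 and 3131 with NKX2-1 siRNA 2. Those of siRNA 1 were all below and those of siRNA 2 all above the controls, with differences of -0.25 ± 0.05 (adjusted p = 7.14e-05) and 0.14 ± 0.05 (adjusted p = 0.0158, limma). The rise with siRNA 2 was lost without its replicate 2 (adjusted p = 0.173). Their mean was -0.05 ± 0.04 (adjusted p = 0.286). EPCAM was at 2078 and 2047 with SOX2 siRNA 1 and at 2870 and 2813 with SOX2 siRNA 2. Only the siRNA 1 libraries were below the controls, and they carried the mean fall of 0.20 ± 0.04 (adjusted p = 7.01e-05), with -0.43 for siRNA 1 (adjusted p = 8.28e-09) and 0.03 for siRNA 2 (adjusted p = 0.598).

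ST14 was not called in the siRNA table. It was at 99.8, 80.4 and 140 in si-control, 97.5, 88.7, 100 and 99.3 with the SOX2 siRNAs, and 95.3, 97.3, 99.2 and 157 with the NKX2-1 siRNAs, so the groups overlapped. The differences were -0.11 ± 0.16 for SOX2 (95% interval -0.44 to 0.23; adjusted p = 0.603) and 0.08 ± 0.16 for NKX2-1 (95% interval -0.26 to 0.41; adjusted p = 0.749). The fall of 1.80 with circRMST shRNAs lies outside both intervals, but it was measured against shGFP in another table and the difference between the tables was not tested.

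In the siRNA table CDH1 had 3 reads in si-control replicate 2, 1 in 2 NKX2-1 siRNA libraries and none in the other 8. KRT19 had 0, 1 and 2 reads in the controls and 2 to 11 in the 8 knockdown libraries. ESRP1 had 2 reads in each control and 0 to 3 in the knockdown libraries. ESRP2 had 5 or 6 reads in the controls, 5 to 13 with SOX2 siRNAs and 3 to 26 with NKX2-1 siRNAs. None of these 4 reached the minimum mean of 10. Without that filter ESRP1 passed with SOX2 siRNAs (-1.34 ± 0.39, adjusted p = 0.0411, limma), on 2 reads in each control and 0 or 1 in each SOX2 siRNA library, and passed with neither siRNA alone (adjusted p = 0.0644 and 0.121). The other differences of these 4 genes from si-control did not pass without the filter.

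**Figure D2:**
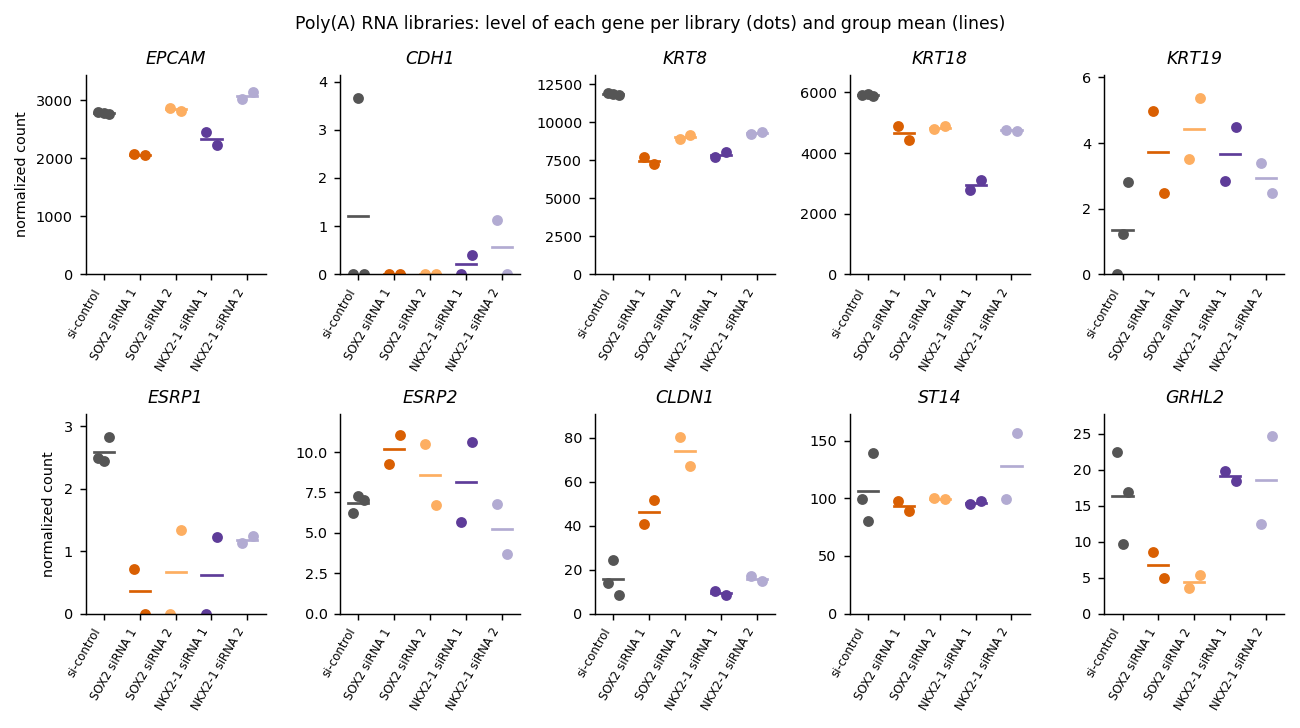
Normalized count of each of the 10 genes in the 11 poly(A) RNA libraries (dots) with the mean of each group (lines); each panel has its own axis from 0. KRT8 and KRT18 are below the controls with every siRNA, CLDN1 is above them with SOX2 siRNAs only (40.6 to 80.6), and EPCAM lies on different sides of the controls with the siRNAs to NKX2-1.

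**Figure D3:**
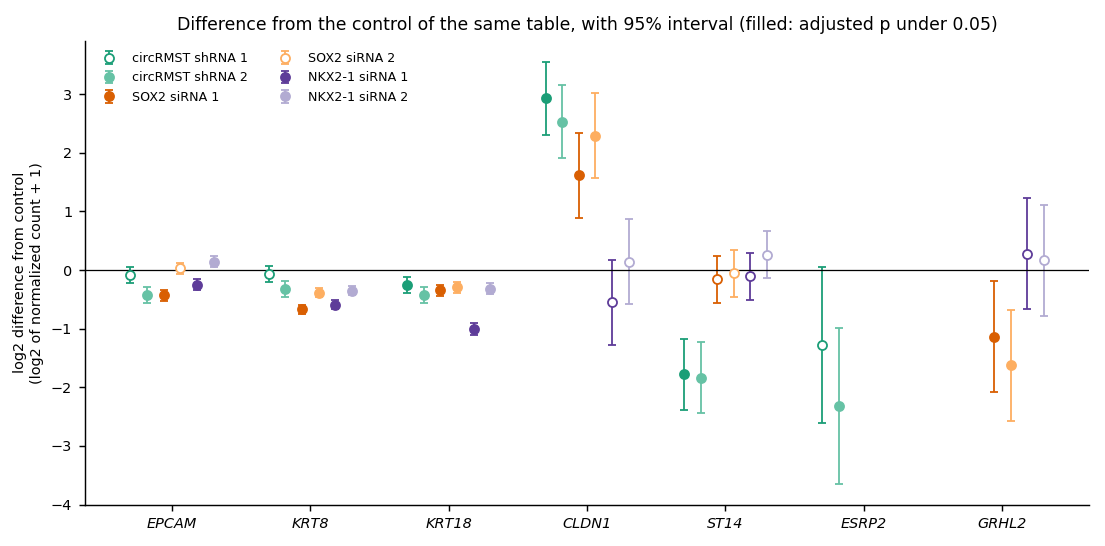
Log2 difference from the control of the same table for each reagent (dots, with unadjusted 95% intervals) on the log2(normalized count + 1) scale; filled dots had an adjusted p under 0.05 with limma, and a gene is shown where it was tested. CLDN1 lies between 1.62 and 2.93 with the circRMST and SOX2 reagents, and EPCAM has both signs.

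Reagent 1 gave lower values than reagent 2 for EPCAM and KRT8 with both siRNA targets. With SOX2 the differences between siRNA 1 and siRNA 2 were -0.46 for EPCAM and -0.28 for KRT8 (adjusted p = 7.28e-08 and 8.93e-06, limma), while 18.5% of all genes tested differed. With NKX2-1 they were -0.40 for EPCAM and -0.24 for KRT8 (adjusted p = 7.28e-07 and 4.43e-05). SOX2 itself was at similar means with its siRNAs (393 and 452), and NKX2-1 was higher with its siRNA 1 than its siRNA 2 (1014 and 816). The part of knockdown depth in these differences was not tested.

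Because KRT8 and KRT18 pair in the filament, their ratio was taken within each library, where scaling and depth cancel. It was 2.02, 2.00 and 2.00 in si-control, 1.58 and 1.64 with SOX2 siRNA 1, 1.86 and 1.88 with SOX2 siRNA 2, 2.75 and 2.59 with NKX2-1 siRNA 1, and 1.93 and 1.98 with NKX2-1 siRNA 2. The control libraries lay together, SOX2 siRNAs lay below them, NKX2-1 siRNA 2 just below and NKX2-1 siRNA 1 above them, with no overlap and no test of the ratio. In the shRNA table the ratio was 0.387 and 0.440 in shGFP, 0.446 and 0.493 with shRNA 1, and 0.441 and 0.447 with shRNA 2, with little gap between groups. The ratio is compared between libraries of 1 table only, since counts are not corrected for length and the tables differ in kit and RNA. RefSeq lets the KRT8 and KRT18 spans overlap by 1006 bases, so reads there may be shared between them, and the poly(A) kit named in the labels is not described as stranded. Processed copies of both keratins were listed as well: KRT8 pseudogenes held 10.1% to 13.2% of the reads given to KRT8 and its copies in total RNA and 1.67% to 4.22% in poly(A) RNA, led by KRT8P12 at means of 102 and 121 normalized counts. KRT18 copies held 3.82% to 5.94% and 0.874% to 2.16%. Reads of KRT8, KRT18 and their copies could be split between them by the counting, which adds uncertainty to both levels.

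**Figure D4:**
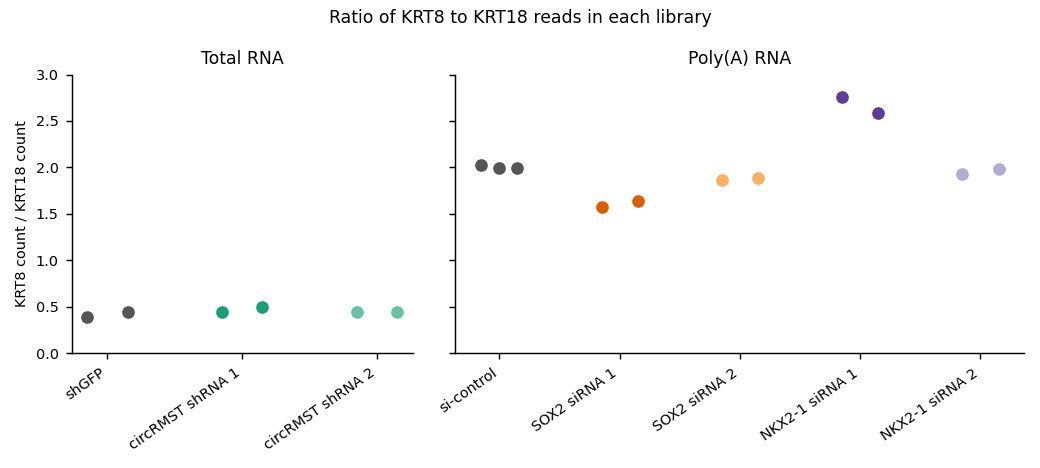
Ratio of the KRT8 count to the KRT18 count in each library (dots) by group, for total RNA (left) and poly(A) RNA (right), on an axis from 0. Within total RNA the libraries lie between 0.387 and 0.493. Within poly(A) RNA, NKX2-1 siRNA 1 is highest (2.59 and 2.75) and SOX2 siRNA 1 lowest (1.58 and 1.64), and the panels are not compared with each other.

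By profile over libraries, the protein-coding genes most like KRT8 in the siRNA table were PXDN, PLAU and CYBA, with Pearson r of 0.992, 0.989 and 0.988 over 11 libraries and 11577 genes compared. In the shRNA table they were CTDNEP1, TRAPPC3 and TMEM45A (r of 0.994, 0.991 and 0.989 over 6 libraries). Within the set, KRT8 went with KRT18 at r = 0.738 and with EPCAM at r = 0.664 in the siRNA table. For CDH1, with 37 reads in total RNA and 5 in poly(A) RNA, no ranking is given. These values describe groups of libraries that share knockdowns, controls and scaling, and carry no test.

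Other genes of epithelial junctions were read from lists of symbols, beside the median of all genes tested, which was 0.00148 for circRMST, 0.00710 for SOX2 and -0.00430 for NKX2-1. Every list count stands against the shares of all genes tested that were called higher and lower: 27.8% and 25.9% for circRMST, 27.6% and 28.7% for SOX2, and 18.5% and 21.4% for NKX2-1. A gene whose mean was under 10 over the knockdown libraries or over the controls entered only through the side where it was high, so counts quoted for a list that holds such genes are also given without them, a choice made after seeing the data. Of 14 tight junction genes tested, 7 fell and 4 rose with circRMST shRNAs (median -0.39), 8 fell and 1 rose with SOX2 siRNAs (median -0.23), and 7 fell and 0 rose with NKX2-1 siRNAs (median -0.20). Without MARVELD3 and LSR, which entered through shGFP, 5 of 12 fell and 4 rose with circRMST shRNAs (median -0.22). Without LSR, 8 of 13 fell and 0 rose with SOX2 siRNAs (median -0.32) and 7 of 13 fell with NKX2-1 siRNAs (median -0.20). TJP3, a scaffold protein under the junction, fell by 1.68 ± 0.14 with SOX2 siRNAs and by 1.01 ± 0.14 with NKX2-1 siRNAs (adjusted p = 6.57e-11 and 1.44e-06, limma). With circRMST shRNAs TJP3 fell by 2.06 ± 0.36 (adjusted p = 3.93e-05, limma), and its shGFP excess of 65.3 normalized counts is beyond the 38.7. CLDN4, a claudin, fell by 0.51 ± 0.05 with SOX2 siRNAs and by 0.57 ± 0.05 with NKX2-1 siRNAs. CLDN1 thus rose with SOX2 siRNAs where CLDN4 fell. With circRMST shRNAs, where CLDN1 also rose, CLDN3, CLDN4 and CLDN12 rose by 0.32, 0.35 and 0.46, and CLDN7 was not called (-0.54). MARVELD3 and LSR, membrane proteins of tight junctions, fell by 3.85 and 3.12 with circRMST shRNAs, and their shGFP excesses were 39.1 and 25.8 normalized counts, near to or within the 38.7 of genes without siRNA reads.

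Adherens junctions anchor the actin cytoskeleton of neighbouring cells to each other. Of 9 genes tested, 4 fell and 3 rose with circRMST shRNAs (median -0.53), 7 fell and 0 rose with SOX2 siRNAs (median -0.20), and 4 fell and 0 rose with NKX2-1 siRNAs (median -0.10). Without NECTIN4, which was under a mean of 10 with SOX2 siRNAs, 6 of 8 fell there (median -0.16). JUP (plakoglobin), which links cadherins to the cytoskeleton, fell by 0.95 ± 0.07, 0.62 ± 0.04 and 0.79 ± 0.04 (adjusted p = 5.20e-11, 1.90e-12 and 2.80e-14, limma). VCL (vinculin) fell by 0.55 with circRMST shRNAs and by 0.20 with SOX2 siRNAs, and was not called with NKX2-1 siRNAs. CTNNA1 (alpha-catenin) fell by 0.50 with SOX2 siRNAs and by 0.18 with NKX2-1 siRNAs, and was not called with circRMST shRNAs. NECTIN1, a nectin adhesion protein, fell by 0.53 with circRMST shRNAs, 0.27 with SOX2 siRNAs and 0.29 with NKX2-1 siRNAs. These components were measured in cells with hardly a CDH1 read, while CDH2 (N-cadherin) stood at means of 5123 in si-control and 7957 in shGFP.

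Of 8 desmosome genes tested, 4 fell and 3 rose with circRMST shRNAs (median -0.35), 4 fell and 0 rose with SOX2 siRNAs (median -0.31), and 5 fell and 0 rose with NKX2-1 siRNAs (median -0.25). PPL (periplakin) and PKP2 (plakophilin) fell by 1.97 ± 0.22 and 1.35 ± 0.11 with circRMST shRNAs (adjusted p = 7.52e-08 and 4.52e-10, limma). DSC2 (desmocollin), a desmosomal cadherin, fell by 0.82 ± 0.09 with SOX2 siRNAs and by 0.48 ± 0.09 with NKX2-1 siRNAs. PPL fell by 0.64 with SOX2 siRNAs and EVPL (envoplakin) by 0.39 with NKX2-1 siRNAs.

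Cell polarity genes had 3 of 8 higher and 2 lower for circRMST, 2 higher and 4 lower for SOX2, and 1 higher and 3 lower for NKX2-1 (medians 0.14, -0.08 and -0.07), where the shares of all genes tested were 27.8% and 25.9%, 27.6% and 28.7%, and 18.5% and 21.4%. SCRIB, a basolateral polarity protein, rose by 0.67 ± 0.08, 0.25 ± 0.05 and 0.34 ± 0.05 in turn, and PRKCI, an atypical protein kinase C, fell by 1.11 ± 0.06 with circRMST shRNAs (adjusted p = 1.43e-13, limma). LLGL2, a basolateral polarity protein, fell by 0.25 with SOX2 siRNAs, and PRKCZ, an atypical protein kinase C, by 0.27 with NKX2-1 siRNAs. Among other keratins, 4 of 10 were testable in total RNA and 3 in poly(A) RNA, with 1 higher and 1 lower for circRMST, 1 and 1 for SOX2, and 1 and 2 for NKX2-1. KRT80, a type II keratin, fell by 1.59 ± 0.08 with SOX2 siRNAs and 1.23 ± 0.08 with NKX2-1 siRNAs (adjusted p = 1.49e-15 and 1.14e-12, limma). KRT7, another type II keratin, rose by 0.43 with circRMST shRNAs and fell by 0.45 with NKX2-1 siRNAs. KRT10 rose by 0.23 with SOX2 siRNAs and by 0.23 with NKX2-1 siRNAs, and fell by 0.46 with circRMST shRNAs.

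The partners of matriptase moved where ST14 itself was not called. SPINT1, its membrane inhibitor, fell by 1.25 ± 0.06 with SOX2 siRNAs and 0.83 ± 0.06 with NKX2-1 siRNAs (adjusted p = 1.42e-16 and 2.77e-12, limma). PRSS8 (prostasin), a membrane serine protease that acts with matriptase, fell by 2.25 ± 0.31 and 1.51 ± 0.31 (adjusted p = 4.77e-07 and 0.00025). With circRMST shRNAs, where ST14 fell, SPINT1 rose by 0.47 ± 0.13 (adjusted p = 0.00327). SPINT1 and PRSS8 were the 2 of 6 list genes testable in each table, and PRSS8 was not called with circRMST shRNAs (-0.17).

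Epithelial transcription factors other than GRHL2 fell with SOX2 siRNAs in 4 of 7 tested and rose in 1 (median -0.33), against 1 lower and 4 higher of 8 with circRMST shRNAs (median 0.34) and 1 and 1 of 7 with NKX2-1 siRNAs (median 0.04). Without EHF, which was under a mean of 10 with SOX2 siRNAs, 3 of 6 fell there and 1 rose (median -0.21), and without TP63 the circRMST counts were 1 lower and 4 higher of 7 (median 0.35). KLF5, a Krüppel-like factor, fell by 1.20 ± 0.11 with SOX2 siRNAs (adjusted p = 2.59e-10, limma) and rose by 0.58 ± 0.10 with circRMST shRNAs (adjusted p = 4.22e-05). ELF3, an ETS factor of epithelia, fell by 0.88 ± 0.07 with SOX2 siRNAs. FOXA2 fell by 0.54 with circRMST shRNAs and FOXA1 rose by 0.41 with NKX2-1 siRNAs, both being forkhead factors of endoderm. FOXA1 also rose by 0.35 with circRMST shRNAs, and FOXA2 rose by 0.26 with SOX2 siRNAs. FOXA1 was not called with SOX2 siRNAs, nor FOXA2 with NKX2-1 siRNAs.

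Splicing regulators were read beside ESRP1 and ESRP2. RBM47, an RNA-binding protein of epithelia, rose by 2.39 ± 0.21 with circRMST shRNAs and fell by 1.23 ± 0.23 with SOX2 siRNAs (adjusted p = 1.50e-09 and 3.94e-05, limma). PTBP1, a splicing repressor, fell by 0.55 and rose by 0.52 in the same comparisons. RBFOX2 and QKI, splicing factors of mesenchymal programmes, rose by 0.47 and 0.36 with NKX2-1 siRNAs, where RBM47 fell by 1.01 and PTBP1 rose by 0.26. RBFOX2 also rose by 0.43 with SOX2 siRNAs and fell by 0.19 with circRMST shRNAs. QKI rose by 0.34 with circRMST shRNAs and was not called with SOX2 siRNAs. Of the 4 genes, 2 rose and 2 fell for circRMST, 2 rose and 1 fell for SOX2, and 3 rose and 1 fell for NKX2-1 (medians 0.07, 0.28 and 0.31).

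Repressors of epithelial genes were mixed: 2 of 5 rose and 1 fell with circRMST shRNAs (median -0.24), 1 rose and 1 fell with SOX2 siRNAs (median -0.11), and 3 rose with NKX2-1 siRNAs (median 0.23). ZEB2 rose by 1.41 ± 0.10 with circRMST shRNAs and SNAI2 fell by 0.87 ± 0.06 (adjusted p = 3.73e-11 and 5.20e-11, limma), both being repressors of CDH1. SNAI2 rose by 0.51 ± 0.05 with SOX2 siRNAs. ZEB1, the related repressor, stood at means of 3025 in shGFP and 889 in si-control, in cells where VIM (vimentin) had a mean of 32.3 in shGFP and 0 in si-control. VIM fell by 3.44 with circRMST shRNAs on counts within the 38.7 limit, having entered the test through shGFP. FN1 (fibronectin) fell by 2.29 ± 0.07 with circRMST shRNAs and rose by 1.20 ± 0.04 with NKX2-1 siRNAs.

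Of 8 other epithelial genes tested, 5 fell and 2 rose with circRMST shRNAs (median -1.42), 1 fell and 3 rose with SOX2 siRNAs (median 0.25), and 1 fell and 1 rose with NKX2-1 siRNAs (median 0.14). Without ERBB3 and PROM2, which entered through shGFP, 3 of 6 fell and 2 rose with circRMST shRNAs (median -0.78), and without ERBB3 0 of 7 fell and 3 rose with SOX2 siRNAs (median 0.30). ERBB3, a receptor tyrosine kinase, and PROM2, a membrane protein of protrusions, fell by 3.51 and 2.18 with circRMST shRNAs, with shGFP excesses of 44.4 and 26.9 normalized counts beside the 38.7. With SOX2 siRNAs, where its mean was also under 10, ERBB3 differed by -1.68 ± 0.34 (adjusted p = 0.000146, limma). CD24, a surface glycoprotein, rose by 0.68 ± 0.03 with SOX2 siRNAs and by 0.41 ± 0.03 with NKX2-1 siRNAs. With circRMST shRNAs it went the other way, from a mean of 28580 ± 846 in shGFP to 7322 ± 247 and 6572 ± 40.0 (SD, n = 2 each), and fell by 2.04 ± 0.05 (4.12-fold, adjusted p = 6.51e-20, limma).

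**Figure D5:**
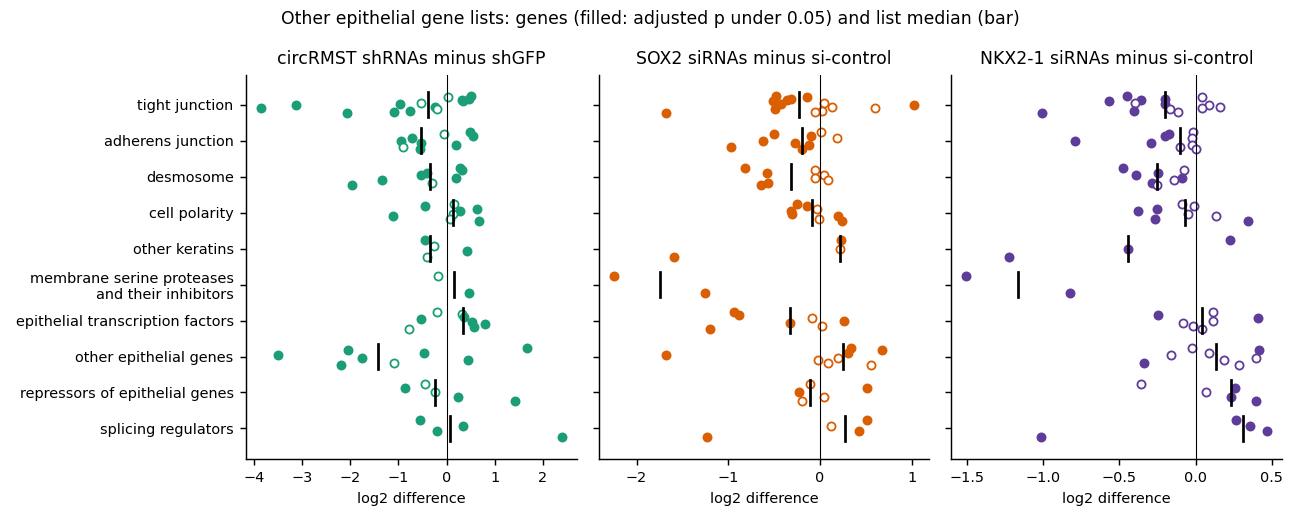
Log2 difference of each tested gene of 10 further lists (dots, filled at an adjusted p under 0.05 with limma) and the list median (black bar) for the mean of the circRMST shRNAs, the SOX2 siRNAs and the NKX2-1 siRNAs against their controls; the axes differ between panels. Desmosome, adherens and tight junction medians lie below 0 in all 3 panels, and those of splicing regulators lie above it.

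Markers of other cell types were read in the same libraries. Of 5 fibroblast markers (COL1A1, COL1A2, DCN, LUM, PDGFRA), 3 to 5 had a read in each library, with summed levels of 419 and 534 in shGFP, 467 to 877 with circRMST shRNAs, 145 to 163 in si-control, 207 to 242 with NKX2-1 siRNAs and 356 to 536 with SOX2 siRNAs. By this sum every siRNA knockdown library was above the controls, but the markers did not all rise. LUM and PDGFRA rose by 1.48 and 1.75 with SOX2 siRNAs, while DCN stayed between 0 and 1.34 there and COL1A1 was not called. With NKX2-1 siRNAs, PDGFRA rose by 1.28 ± 0.12, COL1A1 fell by 1.37 ± 0.37 (adjusted p = 0.00371, limma) and LUM was not called (0.14). COL1A1 was under the minimum mean on at least 1 side there, and without it 1 of 2 rose and 0 fell (median 0.71). With circRMST shRNAs, LUM rose by 2.34 ± 0.13, while PDGFRA fell by 2.05 ± 0.21 and COL1A1 and DCN had differences of -2.78 and -3.53, all 4 called (list median -2.41). The shGFP excess was 215 normalized counts for PDGFRA, beyond the 38.7, and 37.8 for COL1A1 and 24.6 for DCN, within it. Without COL1A1 and DCN, which entered through shGFP, 1 of 2 rose and 1 fell (median 0.15). Of 5 blood and endothelial markers (PTPRC, CD68, PECAM1, CDH5, VWF), 2 to 5 had a read, with summed levels of 399 and 412 in shGFP, 147 to 181 with circRMST shRNAs, 341 to 354 in si-control, 75.1 to 136 with SOX2 siRNAs, 148 and 160 with NKX2-1 siRNA 1, and 436 and 443 with NKX2-1 siRNA 2. PTPRC, which defines blood cells, was at 0 in the si-control and SOX2 siRNA libraries, and PECAM1 fell by 1.96 ± 0.10 with SOX2 siRNAs. INSM1, a neuroendocrine transcription factor, fell by 1.33 ± 0.06 with circRMST shRNAs, in the libraries where EPCAM, KRT8 and KRT18 were lower. In the same comparison SYP, NKX2-1 and NCAM1 fell by 0.77, 0.41 and 0.13, CHGA rose by 0.50 and DLL3 was not called (-0.17). INSM1 rose by 0.47 with SOX2 siRNAs and by 0.45 with NKX2-1 siRNAs. The other markers were mixed: with SOX2 siRNAs NCAM1 and SYP fell by 0.39 and 0.25 and NKX2-1 rose by 0.21. CHGA and DLL3 were not called there. With NKX2-1 siRNAs, CHGA rose by 0.19, and SYP, NCAM1 and DLL3 were not called. The part of these markers in the results on epithelial genes was not tested.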

How the data were processed

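RNA sequencing of 17 SHP77 libraries was used, and 10 ChIP-seq samples were not analysed here. Tools listed in the submitters' processing notes are DESeq2, STAR 2.5.2b and cutadapt 2.5, with the genome hg38; the annotation, the counting tool and its strand setting are not given in the sources used here. The deposited signal is a normalized count per gene, in separate tables for shRNA and siRNA libraries, and 100% of values were whole multiples of the smallest value of their library (tolerance 0.05), so reads were recovered. Rows without a human gene ID (55 and 38) were left out, and 98.5% of IDs matched a symbol. Tests used limma 3.58.1 in R 4.3.3 on log2(normalized count + 1), with all libraries of a table, a mean per group, genes with a mean of at least 10 (19068 and 16750), Benjamini-Hochberg adjustment over them and two-sided p-values; fold changes on this scale understate low genes. The fits were tested on simulated data in which few genes changed and all genes had the same dispersion. That setting differs from these data, where a large share of genes was called, so it does not bear on how calls depend on the scaling. Alternatives were edgeR 4.0.16 and DESeq2 1.42.0 on recovered reads, other pseudocounts, filters and scalings, a replicate block, and leaving out each library; after seeing the data, counts over genes with a mean of at least 10 on both sides of a comparison were added. Members and lists were chosen with earlier results of these data known. Besides the members and targeted genes, list genes were named as the up to 2 largest changes per list and knockdown comparison that passed with each reagent alone; nearest profiles were the 3 highest correlations (for KRT8); a few further genes (CDH2, VIM, ZEB1, COL1A1, DCN, PTPRC, NECTIN4, EHF, TP63 and CD24 with circRMST shRNAs) were named after their values were seen, and some results that these rules select are not reported here. Some changes of listed genes in comparisons outside these rules were also added after their values were seen. Sequences and positions are from RefSeq (GRCh38.p14). Counts of 0 and low reads cover counting error only.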

Additional observations from a re-analysis of the deposited data

Results flagged for a closer look

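The 2 reagents against a target differed beyond the spread between libraries for several members, by the test of the difference itself (limma on log2(normalized count + 1), adjusted over all genes tested). For circRMST, shRNA 1 minus shRNA 2 was 0.34 for EPCAM and 0.26 for KRT8, with shRNA 2 lower. For SOX2, siRNA 1 minus siRNA 2 was -0.46 for EPCAM and -0.28 for KRT8, with siRNA 1 lower. For NKX2-1, siRNA 1 minus siRNA 2 was -0.40 for EPCAM, -0.24 for KRT8 and -0.69 for KRT18, again with siRNA 1 lower. In each pair both libraries of one reagent lay below both libraries of the other.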

How the results depend on the processing

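Of 1116 alternative values of single members, 1071 kept their direction and side of the threshold, 13 came to pass, 19 no longer passed and 13 changed sign, all 13 being values that did not pass; where a call was lost, the cause was not tested beyond fewer samples or genes. Those with a new sign were ST14 with SOX2 siRNAs (0.0807 with quantile normalization, 0.10 with the replicate block, -0.29 to 0.10 with a library left out), EPCAM with SOX2 siRNA 2 (-0.0426, quantile normalization), EPCAM with NKX2-1 siRNAs (0.0052, equal totals) and, with a library left out, CLDN1 (-0.54 to 0.17), ST14 (-0.11 to 0.29) and GRHL2 (-0.0865 to 0.48) with NKX2-1 siRNAs, ST14 between circRMST shRNAs (-0.0425 to 0.16), KRT18 between SOX2 siRNAs (-0.13 to 0.0171) and GRHL2 between NKX2-1 siRNAs (-0.35 to 0.58). Without the filter, 10409 genes were lower with circRMST shRNAs, and 1325 and 2005 differed between the circRMST shRNAs and the SOX2 siRNAs, with 1 member higher in the former. It made 7 members lower instead of 5 with circRMST shRNAs (KRT19 and CDH1 added) and 5 instead of 4 with SOX2 siRNAs (ESRP1 added). Counting members with a mean of at least 10 on both sides, an alternative chosen after seeing the data, gave 4 lower with circRMST shRNAs (without ESRP2), 3 with SOX2 siRNAs (without GRHL2) and 2 with NKX2-1 siRNAs. With a minimum mean of 50, which drops CLDN1 and GRHL2 in poly(A) RNA, 0 members were higher with SOX2 siRNAs, and 1 was higher and 1 lower against NKX2-1 siRNAs. With a library left out, 3 to 5 members were lower with circRMST shRNAs (3 without shGFP replicate 2), 1 to 3 were higher with shRNA 1 than shRNA 2, and 2230 to 2468 and 1912 to 3221 genes differed between the circRMST shRNAs and the SOX2 siRNAs; a group then holding 1 library is assumed to vary like the others. KRT18 with circRMST shRNA 1 alone lost its call without shGFP replicate 1 (adjusted p = 0.0625) or its own replicate 2 (0.0901), and EPCAM and KRT8 with shRNA 1 alone passed with equal totals (0.00396 and 0.0124).

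Same-numbered libraries did not deviate together over the genes tested (correlations of -0.11 to 0.05). The labels do not say whether equal numbers mark libraries prepared together, and these correlations cannot settle it. With the replicate block, which drops si-control replicate 3, 5236 genes were higher and 4891 lower with circRMST shRNAs, 2431 and 2969 with NKX2-1 siRNAs. Calls lost with the block were EPCAM with NKX2-1 siRNA 2 (0.14, adjusted p = 0.0681) and GRHL2 with SOX2 siRNA 1 (-1.08, adjusted p = 0.096); it ended no other call of a member.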
